A study of Mus musculus with 12 samples.

Results

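Eosinophil marker genes were followed through cultures of mouse neutrophils exposed to bile acids: Epx, Prg2, Prg3, Ear1, Ear2, Ear6, Siglecf, Ccr3 and Il5ra. These 9 genes, of 29737 in the count table, were chosen by name because eosinophil markers were seen to fall with Tβ-MCA in earlier work on these same libraries. Their difference between Tβ-MCA and PBS is therefore given as a description and not as a test. All 9 passed the filter on low counts, which left 16761 genes for testing.

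Ly6G+ neutrophils were prepared with magnetic beads from the bone marrow of wild-type (WT) mice and kept in serum-supplemented RPMI medium for 24 h. The 4 groups, of 3 libraries each, received PBS as the control, taurocholic acid (TCA) at 200 μM, glycocholic acid (GCA) at 200 μM, or tauro-β-muricholic acid (Tβ-MCA) at 10 μM as the labels give it. The PBS libraries carry the replicate numbers 3, 5 and 6 and each bile acid has 3, 4 and 5. The labels do not say whether these numbers stand for mice, cultures or days, and give no sex or age, so p-values measure the spread between libraries, part of which may be technical. Libraries of the same group differed by more than counting noise, and each held between 32757389 and 41375925 gene counts.

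Eosinophils are granulocytes that mature in the bone marrow under interleukin 5 and are known for defence against helminths and for allergic inflammation. Their granules are packed with cationic proteins, among them eosinophil peroxidase, major basic protein and the eosinophil-associated ribonucleases. Mature cells carry the eotaxin receptor CCR3 and the lectin Siglec-F, and these genes are not typical of neutrophils. Siglecf and some Ear genes are also expressed by certain macrophages.

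Summed over the 9 genes, the level was 211 ± 68.3 CPM (SD, n = 3) in PBS, where CPM is a read count divided by the TMM-normalized library size, so that 1 CPM was 1 read in each 1000000. The sum of 13 neutrophil markers in the same libraries was 52476 ± 6206 CPM (SD, n = 3), so neutrophil transcripts were far more abundant than eosinophil transcripts. In RNA from a mixed culture, fewer cells of a type and less RNA per cell cannot be told apart.

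The 3 ribonuclease genes lie on chromosome 14 and resemble each other closely. Some reads, mainly those of Ear1 and Ear2, could belong to more than 1 gene. The first 90 bases of each coding sequence are shown because they make the resemblance visible. They come from GENCODE transcripts on GRCm38, at chr14:43819320-43819409 on the minus strand for Ear1, chr14:44102887-44102976 on the plus strand for Ear2 and chr14:51853998-51854087 on the plus strand for Ear6. Capitals mark bases that differ from Ear2, 2 in Ear1 and 10 in Ear6.
Ear1: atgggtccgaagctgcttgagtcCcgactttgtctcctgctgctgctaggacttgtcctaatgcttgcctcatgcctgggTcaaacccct
Ear2: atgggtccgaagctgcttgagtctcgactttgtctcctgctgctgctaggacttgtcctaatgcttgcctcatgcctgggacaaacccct
Ear6: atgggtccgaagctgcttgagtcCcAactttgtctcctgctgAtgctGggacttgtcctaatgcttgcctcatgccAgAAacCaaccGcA

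The files place the granule genes at chr11:87864000-87875536 on the minus strand (Epx), chr2:84980461-84983632 (Prg2) and chr2:84988215-84993886 (Prg3), both on the plus strand, in GRCm38. The ribonuclease genes span chr14:43818765-43875517 on the minus strand (Ear1), chr14:44102654-44103534 (Ear2) and chr14:51853699-51854643 (Ear6), both on the plus strand. The receptor genes are at chr7:43351341-43359531 (Siglecf) and chr9:124021972-124031689 (Ccr3), both on the plus strand, and chr6:106710357-106749037 on the minus strand (Il5ra). Levels are reads over the annotated exons of these protein-coding genes.

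Over the whole coding sequence, Ear1 and Ear2 were identical at 95.7% of aligned bases, and Ear6 matched Ear1 at 87.3% and Ear2 at 88.2%. Of all 50-base windows along the Ear1 transcript, 57.4% also occurred in a transcript of another gene. The share was 41.5% for Ear2 and 1.36% for Ear6. With 100-base windows it was 23.9% for Ear1, 13.9% for Ear2 and 0% for Ear6, and the read length is not given in the sources used here. The counts of Ear1 and Ear2 are thus uncertain where reads could not be placed, whereas Ear6 can be read nearly on its own. Ear1 also overlaps Ear-ps12, Ear-ps9, Ang-ps2 and AC154806.1, and Ear2 overlaps Gm49101 on the opposite strand.

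The 250 bases before the RefSeq gene starts (GRCm38.p6) are shown for 5 of the genes, to set the closely related ribonuclease genes beside both receptor genes. Windows for 8 of the 9 genes were matched. The motifs searched on both strands were the GATA word AGATAA, in this form or as AGATAG, and the GATA word TGATAA, in this form or as TGATAG, together with the C/EBP word TTGCNNAA. These words are named for factor families used in eosinophil development, none overlaps another in these windows, and capitals mark every match. The windows lie at chr14:43819640-43819889 on the minus strand for Ear1, chr14:44102404-44102653 on the plus strand for Ear2, chr14:51853518-51853767 on the plus strand for Ear6, chr9:124021721-124021970 on the plus strand for Ccr3 and chr6:106749038-106749287 on the minus strand for Il5ra.
Ear1: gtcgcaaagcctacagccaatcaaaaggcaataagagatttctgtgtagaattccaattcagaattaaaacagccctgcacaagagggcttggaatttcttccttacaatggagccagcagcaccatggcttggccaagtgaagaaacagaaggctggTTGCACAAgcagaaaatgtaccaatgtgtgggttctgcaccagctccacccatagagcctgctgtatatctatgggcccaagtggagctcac
Ear2: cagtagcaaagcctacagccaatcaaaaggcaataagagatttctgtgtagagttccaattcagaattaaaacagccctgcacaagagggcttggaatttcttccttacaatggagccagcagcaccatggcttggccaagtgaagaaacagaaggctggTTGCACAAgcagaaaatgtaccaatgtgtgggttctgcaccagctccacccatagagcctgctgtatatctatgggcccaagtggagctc
Ear6: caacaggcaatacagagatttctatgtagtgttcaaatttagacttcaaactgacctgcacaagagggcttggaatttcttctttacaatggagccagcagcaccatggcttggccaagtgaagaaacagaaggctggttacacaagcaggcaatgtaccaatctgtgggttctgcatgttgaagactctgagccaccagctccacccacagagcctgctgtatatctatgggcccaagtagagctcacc
Ccr3: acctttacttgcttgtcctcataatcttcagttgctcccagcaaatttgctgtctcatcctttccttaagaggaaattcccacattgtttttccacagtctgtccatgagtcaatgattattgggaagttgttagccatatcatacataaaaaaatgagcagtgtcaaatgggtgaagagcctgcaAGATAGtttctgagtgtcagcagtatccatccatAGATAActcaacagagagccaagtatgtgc
Il5ra: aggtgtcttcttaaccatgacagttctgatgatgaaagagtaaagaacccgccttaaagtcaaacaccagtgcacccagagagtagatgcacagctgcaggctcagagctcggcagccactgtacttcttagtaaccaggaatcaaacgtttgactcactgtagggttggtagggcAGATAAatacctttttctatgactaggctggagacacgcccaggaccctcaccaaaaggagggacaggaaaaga

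The Ear1 and Ear2 windows were identical at 246 of 248 aligned bases, and each held the C/EBP word. Ear6 matched Ear2 at 211 of 227 aligned bases and did not hold that word. The Ear6 window runs into the gene as the count table bounds it, and the Ear1 window lies wholly inside it. RefSeq places the start of both genes further downstream. GATA words occurred in Ccr3, which had 2, and in Il5ra and Prg3, which had 1 each, and not in these windows of Epx, Siglecf or the Ear genes. Among 32851 mouse promoter windows of the same length, 26.5% held a GATA word and 9.56% the C/EBP word. These matches describe letters and not binding.

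**Figure D1:**
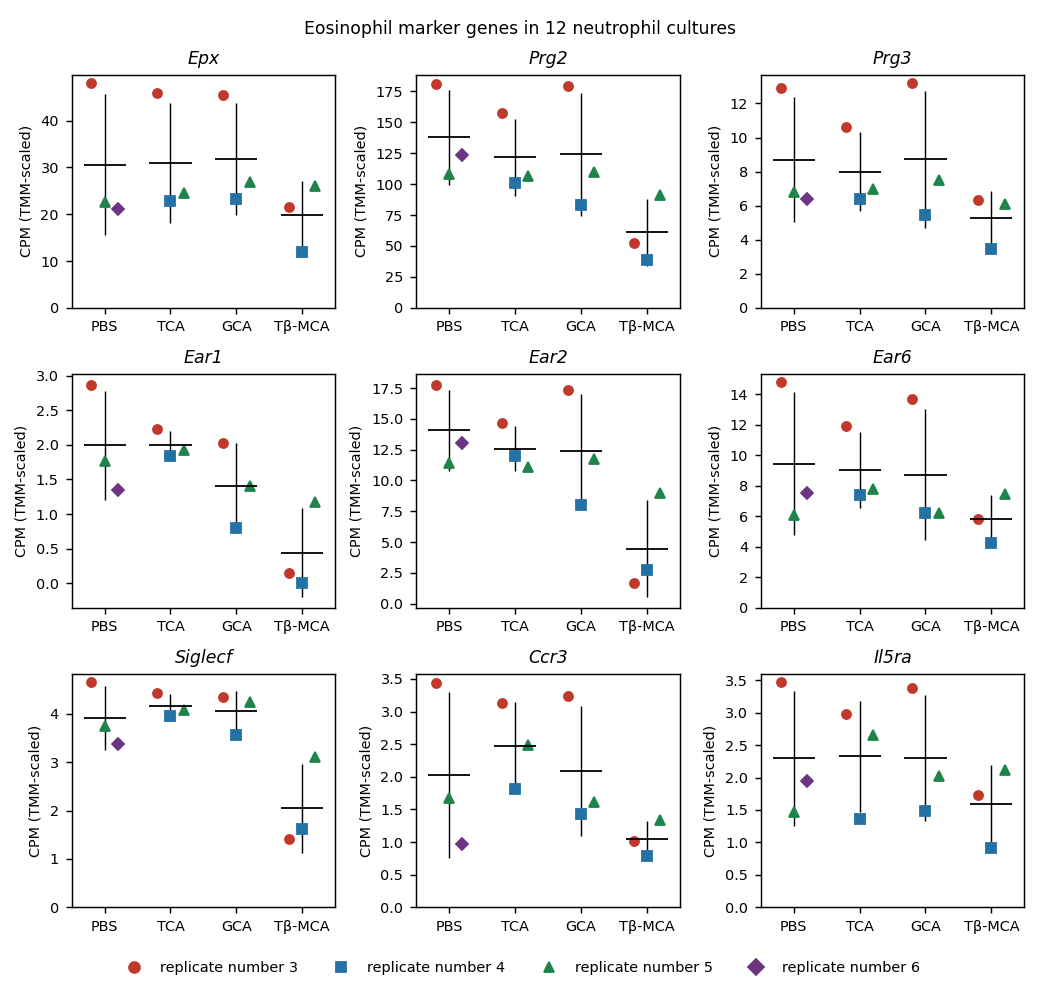
Levels of the 9 genes (y axis, CPM scaled by TMM) in each of 12 libraries, by group; symbols give the replicate number, the horizontal line the mean and the vertical line 1 SD (n = 3). Library 3 is the highest point of PBS, TCA and GCA in every panel, and Siglecf is the gene whose 3 Tβ-MCA points all lie under the other 9.

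Among the granule proteins, Prg2 was by far the most abundant, and its mean in Tβ-MCA was the lowest relative to PBS. The level of Epx was 48.02, 22.6 and 21.2 CPM in PBS libraries 3, 5 and 6, and 45.8, 22.8 and 24.4 CPM in TCA libraries 3, 4 and 5. It was 45.4, 23.2 and 26.8 CPM in GCA libraries 3, 4 and 5, and 21.6, 11.8 and 25.96 CPM in Tβ-MCA libraries 3, 4 and 5. Epx encodes eosinophil peroxidase, a granule enzyme that forms hypobromous acid. Its Tβ-MCA libraries overlapped PBS, since libraries 3 and 5 were above PBS library 6, and library 4 alone was under all libraries of the other groups.

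The level of Prg2 was 181, 108 and 124 CPM in PBS libraries 3, 5 and 6, and 158, 101 and 106 CPM in TCA libraries 3, 4 and 5. It was 179, 82.8 and 109.9 CPM in GCA libraries 3, 4 and 5, and 52.7, 38.9 and 91.1 CPM in Tβ-MCA libraries 3, 4 and 5. Prg2 encodes major basic protein, the crystalline core of the granule. Its 3 Tβ-MCA libraries lay under every PBS library, but library 5 was above GCA library 4, so the groups did not separate fully.

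The level of Prg3 was 12.9, 6.80 and 6.36 CPM in PBS libraries 3, 5 and 6, and 10.6, 6.38 and 6.96 CPM in TCA libraries 3, 4 and 5. It was 13.2, 5.44 and 7.52 CPM in GCA libraries 3, 4 and 5, and 6.31, 3.48 and 6.10 CPM in Tβ-MCA libraries 3, 4 and 5. Prg3, a paralog of Prg2 and its neighbour on chromosome 2, encodes a second major basic protein. Its 3 Tβ-MCA libraries also lay under all PBS libraries, by a narrow margin in library 3. The mean in Tβ-MCA was 64.7% of the PBS mean for Epx, 44.2% for Prg2 and 61.0% for Prg3.

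The ribonuclease genes split, with Ear1 and Ear2 much lower in 2 of the 3 Tβ-MCA libraries and Ear6 closer to Epx. The level of Ear1 was 2.87, 1.77 and 1.35 CPM in PBS libraries 3, 5 and 6, and 2.23, 1.84 and 1.92 CPM in TCA libraries 3, 4 and 5. It was 2.03, 0.802 and 1.40 CPM in GCA libraries 3, 4 and 5, and 0.150, 0 and 1.18 CPM in Tβ-MCA libraries 3, 4 and 5. The counts behind the Tβ-MCA values were 5, 0 and 44 reads. The count of 0 allows up to 3 reads, or 0.0810 CPM. Library 5, at 1.18 CPM, was still above GCA library 4.

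The level of Ear2 was 17.8, 11.4 and 13.1 CPM in PBS libraries 3, 5 and 6, and 14.6, 11.96 and 11.1 CPM in TCA libraries 3, 4 and 5. It was 17.3, 8.05 and 11.7 CPM in GCA libraries 3, 4 and 5, and 1.71, 2.75 and 8.97 CPM in Tβ-MCA libraries 3, 4 and 5. Ear2 showed the same shape at a level where counting error is small. Its Tβ-MCA libraries 3 and 4 were under all 9 cultures of the other groups, while library 5 was above GCA library 4. The part that reads shared with Ear1 play was not tested.

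The level of Ear6 was 14.8, 6.06 and 7.50 CPM in PBS libraries 3, 5 and 6, and 11.9, 7.42 and 7.77 CPM in TCA libraries 3, 4 and 5. It was 13.7, 6.24 and 6.22 CPM in GCA libraries 3, 4 and 5, and 5.80, 4.27 and 7.44 CPM in Tβ-MCA libraries 3, 4 and 5. Tβ-MCA library 5 lay within the PBS range, and library 3 was little under PBS library 5. The Tβ-MCA mean was 22.2% of the PBS mean for Ear1, 31.8% for Ear2 and 61.7% for Ear6.

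Of the surface receptors, Siglecf had the least spread within PBS, TCA and GCA, the widest relative to its mean within Tβ-MCA, and values in Tβ-MCA under those of all other cultures. The level of Siglecf was 4.65, 3.74 and 3.37 CPM in PBS libraries 3, 5 and 6, and 4.44, 3.96 and 4.09 CPM in TCA libraries 3, 4 and 5. It was 4.34, 3.55 and 4.25 CPM in GCA libraries 3, 4 and 5, and 1.41, 1.62 and 3.10 CPM in Tβ-MCA libraries 3, 4 and 5. Siglecf encodes the sialic acid-binding lectin Siglec-F, an inhibitory receptor used to gate mouse eosinophils. All 3 Tβ-MCA values were under the lowest of the 9 other values, and library 5 came nearest.

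The level of Ccr3 was 3.44, 1.68 and 0.971 CPM in PBS libraries 3, 5 and 6, and 3.13, 1.81 and 2.49 CPM in TCA libraries 3, 4 and 5. It was 3.24, 1.43 and 1.61 CPM in GCA libraries 3, 4 and 5, and 1.02, 0.783 and 1.34 CPM in Tβ-MCA libraries 3, 4 and 5. Ccr3 encodes the receptor through which eotaxins draw eosinophils into tissue. Its PBS libraries themselves spanned a wide range, and PBS library 6 was lower than Tβ-MCA libraries 3 and 5.

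The level of Il5ra was 3.47, 1.47 and 1.94 CPM in PBS libraries 3, 5 and 6, and 2.98, 1.35 and 2.65 CPM in TCA libraries 3, 4 and 5. It was 3.38, 1.49 and 2.02 CPM in GCA libraries 3, 4 and 5, and 1.73, 0.918 and 2.11 CPM in Tβ-MCA libraries 3, 4 and 5. Il5ra encodes the subunit of the interleukin 5 receptor that binds the cytokine. Its groups overlapped, and Tβ-MCA library 5 exceeded 2 of the PBS libraries. The mean in Tβ-MCA was 52.2% of the PBS mean for Siglecf, 51.5% for Ccr3 and 69.3% for Il5ra.

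Ranked per transcript length by the deposited RPKM in PBS, Prg2 led at 162 ± 43.6 RPKM (SD, n = 3) and its range did not overlap that of the next gene. Ear2 followed at 19.3 ± 4.30 RPKM, then Epx at 11.01 ± 5.30, Ear6 at 9.85 ± 4.77 and Prg3 at 9.02 ± 3.69 RPKM (SD, n = 3 each). Neighbours within this run of 4 genes overlapped in their ranges. Ear1, at 2.69 ± 1.03 RPKM, and Siglecf, at 1.39 ± 0.217 RPKM (SD, n = 3), each stood apart from the genes next to them. Il5ra and Ccr3 were lowest at 0.632 ± 0.281 and 0.610 ± 0.376 RPKM (SD, n = 3) and could not be ordered. The granule protein and ribonuclease genes were thus all above the receptor genes on this scale.

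In the comparison of Tβ-MCA with PBS, which the choice of genes used, all 9 log2 fold changes were negative. They ran from -0.53 in Il5ra to -2.14 in Ear1 with a median of -0.93, beside a median of 0.0041 over all 16761 genes tested. Standard errors were large for most, from 0.240 in Siglecf to 0.804 in Ear1, and the 95% interval spanned 0 for 5 of the 9. Under edgeR's quasi-likelihood test, 1 of the 9, Siglecf at -0.93 ± 0.240 (SE), was past an adjusted p of 0.05, where 3.18% of all genes tested were called lower. The study's edgeR methods give a p under 0.05, read here as unadjusted, and a 2-fold change, and elsewhere name DESeq2 with adjusted p-values. With the edgeR cutoffs, 3 of the 9 were called lower (Prg2, Ear1 and Ear2), where 1.86% of all genes were. For 5 of the 9 genes (Prg2, Prg3, Ear1, Ear2 and Siglecf) every Tβ-MCA library was under every PBS library, which held for 12.8% of all genes. For 1 of the 9, Siglecf, every Tβ-MCA library was under all 9 libraries of the other groups, which held for 2.30% of all genes. Since the genes were chosen by this fall, nothing is read from these shares. The call of Siglecf was lost when any of the 3 PBS libraries, Tβ-MCA library 3 or Tβ-MCA library 4 was left out, with log2 fold changes of -0.73 to -1.03, and 0 of the 9 were then called. Over all genes, 0 were called in 4 of these 5 fits and 168 without PBS library 6. Without Tβ-MCA library 5, Siglecf was called at -1.37 (edgeR adjusted p = 0.00032) with Prg2, Ear1 and Ear2, 4 of the 9, where 9.44% of all 17131 genes tested were called lower.

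No difference from PBS was detected in the eosinophil genes with TCA or with GCA. Against PBS, the log2 fold changes with TCA ran from -0.18 in Prg2 to 0.28 in Ccr3, and 4 of the 9 were lower. With GCA they ran from -0.50 in Ear1 to 0.06 in Epx, again with 4 of 9 lower. None of the 9 was called by edgeR in either comparison, where 0% of all genes were called, and the smallest unadjusted p among the 9 was 0.515 with TCA and 0.500 with GCA. At an unadjusted p under 0.05 edgeR passed 546 genes for TCA and 591 for GCA, none of them among the 9, and DESeq2 called 1 gene for TCA and 0 for GCA after adjustment. These comparisons share the PBS libraries with each other and with Tβ-MCA.

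The intervals show what could have been missed. Siglecf, the gene with the smallest standard error, differed from PBS by 0.09 with TCA (95% interval -0.40 to 0.57) and by 0.05 with GCA (95% interval -0.44 to 0.53) on the log2 scale, which leaves out a 2-fold change in either direction. For Ear1 the interval ran from -1.54 to 1.54 with TCA and from -2.07 to 1.08 with GCA. A 2-fold change in either direction could thus have been missed at this spread. Ear2 and Epx had intervals of -1.32 to 0.99 and -1.05 to 1.08 with TCA.

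GCA and TCA, the glycine and taurine conjugates of cholic acid, were compared with each other at the same dose and time. Their difference, GCA minus TCA, was 0.04 in Epx (95% interval -1.02 to 1.10), 0.03 in Prg2 (-0.88 to 0.94) and -0.04 in Siglecf (-0.52 to 0.45) on the log2 scale. The extremes were -0.50 in Ear1 (-2.07 to 1.08) and 0.13 in Prg3 (-0.76 to 1.02). None of the 9 was called by edgeR, where 0% of all genes were, with 412 of all genes at an unadjusted p under 0.05 and 0 called by DESeq2. No difference between the conjugates was detected in these genes, and the width of the intervals does not show that both acids act alike. Tβ-MCA was labelled at 10 μM, while the study's methods give another dose, so no test was made between it and the other acids.

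**Figure D2:**
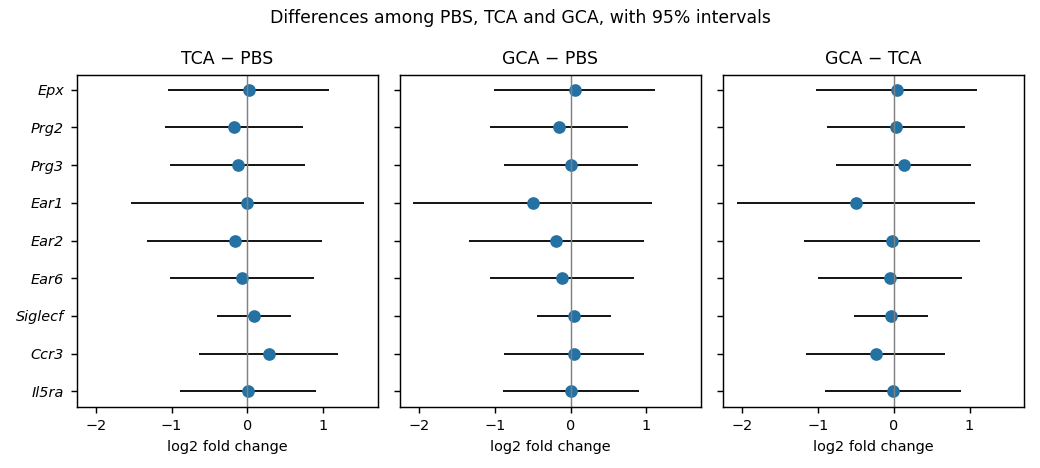
Log2 fold changes of the 9 genes (x axis) for TCA against PBS, GCA against PBS and GCA against TCA, as points with 95% intervals from edgeR (n = 3 libraries a group). Every interval spans 0, and the intervals are narrowest for Siglecf and widest for Ear1.

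A second pattern in the eosinophil genes followed the replicate number: the libraries numbered 3 were high. In PBS, TCA and GCA alike, library 3 was the highest of its group for all 9 genes, which held for 14.4% of all genes tested. Its ratio to the mean of the other libraries of its group ran from 1.31 in Siglecf to 2.60 in Ccr3 in PBS. The ratios ran from 1.10 in Siglecf to 1.94 in Epx in TCA, and from 1.11 in Siglecf to 2.20 in Ear6 in GCA. In Tβ-MCA, library 3 was the highest for Prg3 alone. Library 3 of PBS, TCA and GCA also had the highest sum of neutrophil markers, with ratios of 1.22, 1.19 and 1.20.

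The replicate number was tested as a term on the 6 TCA and GCA libraries, which are not part of the comparison of Tβ-MCA with PBS. This test was added after the pattern was seen in these same libraries, so its p-values describe the pattern and give no separate support. Pairs of the 9 genes were correlated over the 9 libraries without Tβ-MCA (r from 0.64 to 0.97), so the genes are not separate cases. By edgeR, 7 of the 9 genes differed between numbers, where 5.71% of all genes were called. The adjusted p was 9.1e-10 for Epx, 6.2e-06 for Prg2, 2.3e-05 for Ear6, 3.4e-05 for Prg3, 0.0091 for Il5ra, 0.021 for Ear2 and 0.026 for Ccr3. Ear1 (adjusted p = 0.288) and Siglecf (adjusted p = 0.789) did not pass. Granule proteins, ribonucleases and receptors were all among the genes that passed.

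Because of this, each Tβ-MCA library was set beside the PBS library of its own number, and library 4, for which PBS has none, beside the mean of TCA and GCA libraries 4. These ratios are descriptions, since the labels do not say what the numbers stand for and they were not taken to pair the libraries. For number 3, all 9 genes were lower with Tβ-MCA, with ratios from 0.0521 in Ear1 and 0.0960 in Ear2 to 0.500 in Il5ra and a median of 0.303. For number 4, all 9 were lower again, from 0.275 in Ear2 to 0.646 in Il5ra among genes with reads, and Ear1 was at least 16.3-fold lower against the limit of 3 reads. For number 5, 6 of the 9 were lower and 3 were higher (Epx 1.15, Ear6 1.23 and Il5ra 1.44), with a median ratio of 0.843. In Tβ-MCA libraries 3 and 4 the eosinophil genes were thus lower than in the libraries set beside them. In Tβ-MCA library 5 they were between 0.667 and 1.44 of their level in PBS library 5.

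**Figure D3:**
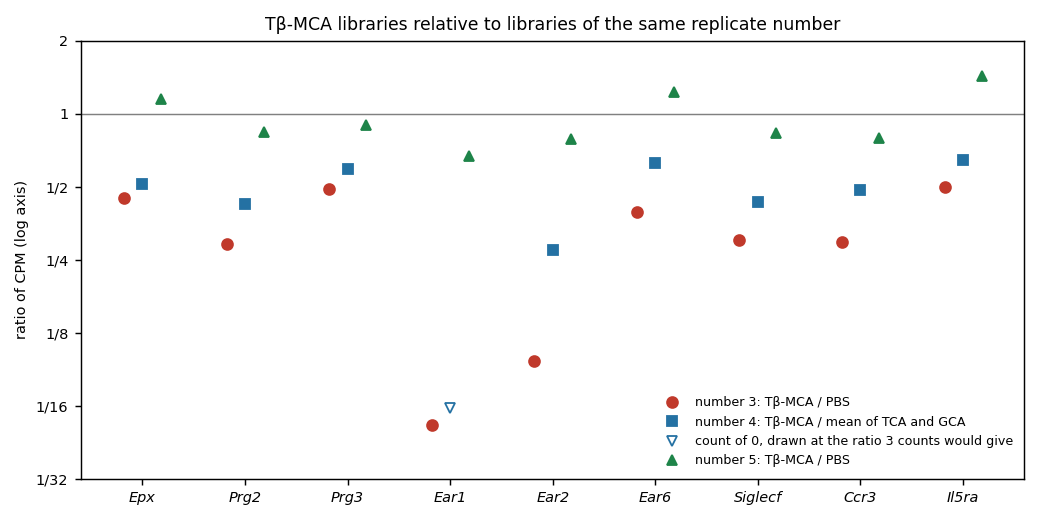
Level of each gene in a Tβ-MCA library divided by the library of the same replicate number in PBS, or for number 4 by the mean of TCA and GCA (y axis, ratio of CPM on a log axis); the open triangle is Ear1 with a count of 0, drawn at the ratio that 3 counts would give. Ratios for numbers 3 and 4 are under 1 for every gene, and those for number 5 lie around 1.

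The 9 genes were not lowered evenly, and their order was alike in the 3 numbers, although number 4 was set beside TCA and GCA and not PBS. In number 3, Ear1 and Ear2 had the lowest ratios, Prg2, Ccr3 and Siglecf followed at 0.291, 0.295 and 0.303, and Ear6, Epx, Prg3 and Il5ra lay between 0.392 and 0.500. In number 4, Ear1 and Ear2 were again lowest, Prg2, Siglecf and Ccr3 were at 0.423, 0.431 and 0.483, and Epx, Prg3, Ear6 and Il5ra lay between 0.513 and 0.646. In number 5, Ear1 and Ear2 were at 0.667 and 0.783, Ccr3, Siglecf and Prg2 at 0.798, 0.831 and 0.843, and Prg3, Epx, Ear6 and Il5ra between 0.898 and 1.44. The 3 tiers were formed after the values were seen and were not tested.

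Pairs of the 9 genes were all positively correlated in log2 CPM across the 12 libraries, with Pearson's r from 0.61 for Siglecf and Il5ra to 0.97 for Ear2 and Siglecf over 36 pairs. Over the 9 libraries without Tβ-MCA, r ran from 0.64 for Ear2 and Ccr3 to 0.97 for Prg2 and Ear2, and the pair Ear2 and Siglecf was at 0.67. Epx and Prg3 were at 0.97 over 12 libraries and 0.96 over 9. These values are descriptions, since the libraries share groups and replicate numbers.

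Outside the 9, the 10 genes whose log2 CPM was most like the mean standardized level of the 9 over 12 libraries were Plekha2, Gm16548, Inhba, Atxn7l3, Numb, Gm14548, Cd34, Olfml2b, Diaph1 and Hic1, with r from 0.97 to 0.98. Inhba, which encodes an activin subunit, was at 135, 73.5 and 78.2 CPM in PBS libraries 3, 5 and 6 and at 43.1, 32.5 and 61.9 CPM in Tβ-MCA libraries 3, 4 and 5. Cd34, a surface marker of progenitors, was at 10.1 and 5.50 CPM in PBS libraries 3 and 6 and at 2.81, 2.27 and 5.67 CPM in Tβ-MCA. Over the 9 libraries without Tβ-MCA the 10 were Gm16548, Megf9, Ceacam1, Plbd1, Xdh, Akap12, Ets1, Atxn7l3, Acvr1b and Usp39, with r from 0.97 to 0.99. Ceacam1, an adhesion molecule, was at 767 and 559 CPM in PBS libraries 3 and 5. Levels within these lists ranged widely, from Hic1 at 5.02 to Ceacam1 at 767 CPM in PBS library 3.

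Other eosinophil genes were read from 3 lists. Of 10 further effector genes, 8 were in the table and 7 were tested, and none was called with Tβ-MCA. Alox15, the 12/15-lipoxygenase of eosinophils, followed Epx in shape, at 13.6, 6.77 and 6.63 CPM in PBS libraries 3, 5 and 6 and 5.23, 2.43 and 7.25 CPM in Tβ-MCA libraries 3, 4 and 5. The ribonuclease gene Rnase2a was at most 0.647 CPM in any library, and Ear10 was at 0 in 11 of 12. Cd63, a granule membrane protein of many cells and the most abundant gene of the list, had a log2 fold change of -0.06 ± 0.071 (SE).

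Of 15 receptors and ligands, 13 were in the table and 8 were tested. Ccr1, a chemokine receptor of several leukocytes, was called lower with Tβ-MCA (log2 fold change -0.74 ± 0.179 SE, edgeR adjusted p = 0.035). Csf2ra, the most abundant, which encodes the binding subunit of the GM-CSF receptor, was not called (-0.35 ± 0.103 SE, edgeR adjusted p = 0.053). Csf2rb, the chain that the interleukin 5 receptor shares with it, had a log2 fold change of -0.09 ± 0.067 (SE). Il3 and Csf2 each had reads in 1 library.

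Of 11 transcription factors of the lineage, all were tested and 2 were called lower. Gata1, required for eosinophil formation, was at 1.81, 1.88 and 1.83 CPM in PBS libraries 3, 5 and 6 and at 0.808, 1.32 and 1.12 CPM in Tβ-MCA libraries 3, 4 and 5 (log2 fold change -0.76 ± 0.212 SE, edgeR adjusted p = 0.043). The groups did not overlap. Library 3 was the lowest for Gata1 in PBS and TCA but the highest in GCA, at 2.06 CPM against 1.72 and 2.00 CPM. Xbp1, which eosinophil precursors need to build granules and which plasma cells also use, fell by 0.49 on the log2 scale (SE 0.098, edgeR adjusted p = 0.021). Spi1, the most abundant of the list, had a log2 fold change of -0.17 ± 0.073 (SE). No gene of the 3 lists was called by edgeR with TCA or GCA. In all, 3 of the 26 tested genes of these lists were called with Tβ-MCA, all lower, where 3.18% of all genes tested were called lower, and 0 were when any PBS library or Tβ-MCA library 3 or 4 was left out. Without Tβ-MCA library 5, 14 of 27 were called, all lower, where 9.44% of all genes were. In the fit on all 12 libraries, the median log2 fold change was -0.85 for effector genes, -0.33 for receptors and ligands and -0.26 for transcription factors. Estimates were lower for 6 of the 7 effector genes, 6 of the 8 receptors and ligands and 9 of the 11 transcription factors tested. Those of Ltc4s (0.57), Ccl5 (0.63), Crlf2 (0.07), Gata2 (0.21) and Zfpm1 (0.28) were higher, and none of them was called.

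Markers of several other cells were also lower with Tβ-MCA, though not in every list or for every gene. Their calls with Tβ-MCA are as fragile as those above, since over all genes 0 were called without PBS library 3 or 5 or without Tβ-MCA library 3 or 4, and 168 without PBS library 6. The share of all genes called lower, 3.18%, is the background for each of the counts that follow. The sum of 10 monocyte and macrophage markers was between 1119 and 1135 CPM in PBS, between 1002 and 1175 in TCA and between 789.6 and 1091 in GCA, against 309 to 869 CPM in Tβ-MCA. Relative to libraries of the same number, it was 0.273, 0.386 and 0.776 in Tβ-MCA libraries 3, 4 and 5. All 10 were tested, all 10 had lower estimates with Tβ-MCA and 1, Ly6c2, was called lower. Ccr2, which marks inflammatory monocytes, was at 51.2, 37.3 and 37.9 CPM in PBS libraries 3, 5 and 6 and at 2.03, 2.70 and 29.2 CPM in Tβ-MCA libraries 3, 4 and 5, the shape of Ear2 and Siglecf. Like Epx it was highest in library 3 of PBS and of GCA, where it was at 43.7, 24.9 and 38.5 CPM in libraries 3, 4 and 5. In TCA library 3, where Epx was also high, it was the lowest of its group, at 44.9 CPM against 46.2 and 46.3 CPM.

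The sum of 8 basophil and mast cell markers was between 222 and 293 CPM in PBS and between 140.2 and 188 CPM in Tβ-MCA, with 1 gene, Hdc, called lower and 7 of the 8 estimates negative. Hdc, which encodes histidine decarboxylase and was the most abundant, is also expressed by myeloid cells. Within the list Ms4a2, a chain of the high-affinity IgE receptor, was high in every library 3 and not lower with Tβ-MCA. It was at 22.5 and 13.6 CPM in PBS libraries 3 and 5 and at 22.4 and 11.9 CPM in Tβ-MCA libraries 3 and 5. Cpa3, the mast cell carboxypeptidase, and Gata2 had the same shape, at 8.05 and 18.6 CPM in Tβ-MCA library 3 against 8.32 and 15.0 CPM in PBS library 3. These 3 genes shared the high level in library 3 with Epx but not its lower level in Tβ-MCA library 3. Prss34, a basophil protease, was instead lower there, at 4.67 CPM against 13.4 CPM in PBS library 3 (log2 fold change -1.20 ± 0.468 SE). Mcpt8, another basophil protease, and Fcer1a, a chain of the same IgE receptor, had log2 fold changes of -0.90 ± 0.422 and -1.11 ± 0.588 (SE), and Kit had -0.03 ± 0.132 (SE). None of these 4 was called by edgeR.

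The sum of 13 neutrophil markers was between 48163 and 59589 CPM in PBS and between 38441 and 43895 CPM in Tβ-MCA, and 4 of the 13 (Ly6g, S100a8, Camp and Mmp9) were called lower, beside 3.18% of all genes. S100a9, the most abundant, had a log2 fold change of -0.30 ± 0.093 (SE). Of the 13 estimates 12 were negative, and Csf3r was at 0.05 ± 0.086 (SE). Mpo was at 209, 195 and 206 CPM in PBS libraries 3, 5 and 6. It was at 32.3, 44.5 and 154 CPM in Tβ-MCA libraries 3, 4 and 5. In the same order Elane was at 21.8, 27.8 and 25.9 CPM and at 2.72, 5.94 and 19.2 CPM. Both had the shape of Ear2 and Ccr2. Their log2 fold changes were -1.40 ± 0.516 and -1.43 ± 0.565 (SE), and neither was called. Of the 5 alveolar macrophage markers, which were included because those cells carry Siglec-F, Car4 was at 0 in 11 of 12 libraries. Fabp4, Marco and Pparg had log2 fold changes of 0.07 ± 0.250, -0.96 ± 0.426 and -1.05 ± 0.571 (SE), and none of these 3 was called. Marco, which encodes a scavenger receptor, was at 224, 237 and 255 CPM in PBS libraries 3, 5 and 6 and at 98.7, 104 and 167 CPM in Tβ-MCA libraries 3, 4 and 5. Chil3, an abundant neutrophil and macrophage gene, was the 1 called lower. Of 6 B cell markers 1, Cd79a, was called lower, and the list summed to at most 13.5 CPM in any library. No T and NK cell, erythroid or dendritic marker was called, and the first 2 of these lists summed to at most 3.03 and 3.22 CPM. The part that these other cells play in the eosinophil values was not tested.

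**Figure D4:**
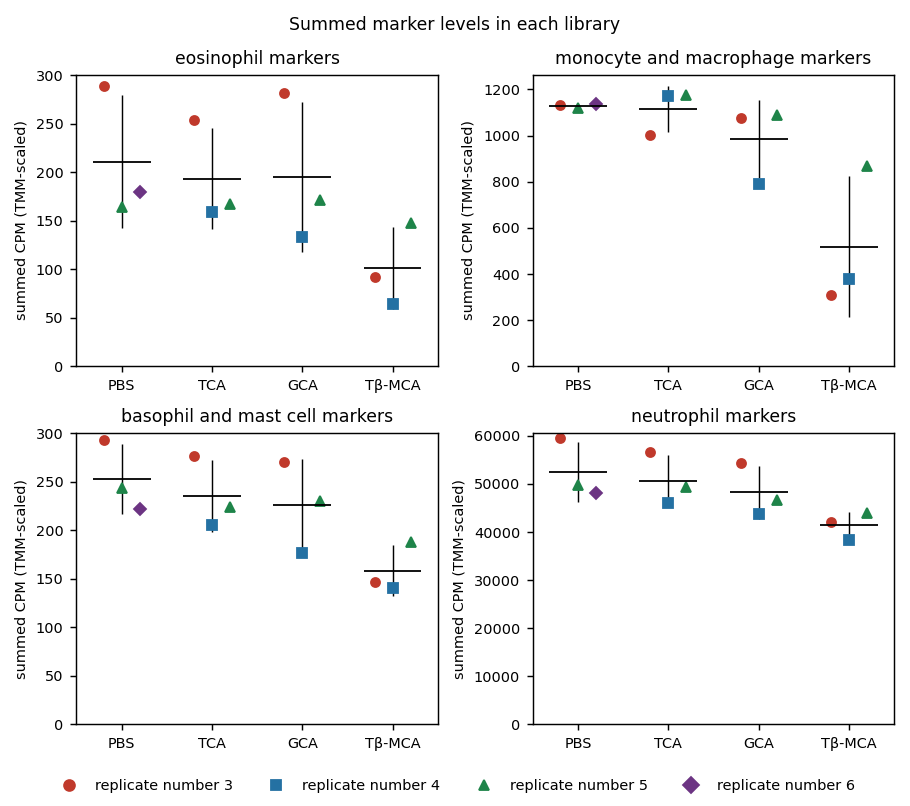
Summed level (y axis, CPM scaled by TMM) of the eosinophil, monocyte and macrophage, basophil and mast cell, and neutrophil markers in each of 12 libraries; symbols give the replicate number, lines the mean and 1 SD (n = 3). Eosinophil, basophil and mast cell, and neutrophil sums are all highest in libraries 3 outside Tβ-MCA. Monocyte sums of PBS lie between 1119 and 1135 CPM and reach 309 CPM in Tβ-MCA library 3.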

How the data were processed

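RNA from 12 cultures was sequenced after preparation with a stranded kit. Per the labels, the authors trimmed reads with Trimmomatic 0.36, aligned them with STAR 2.5.3a to GRCm38 (mm10) and counted them with featureCounts of Subread 1.5.1. The strand setting, the treatment of multiply placed reads and the annotation are not given in the sources used here. The deposited counts were raw, and the deposited RPKM values were computed by the authors from the same counts, per kilobase of exon and library total. The labels give 10 μM for Tβ-MCA, the methods 200 μM. Columns labelled GA were taken as GCA.

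Counts were tested with edgeR 4.0.16 (R 4.3.3): filterByExpr by group, TMM, and a robust quasi-likelihood fit over 12 libraries without covariates. A gene was called at a Benjamini-Hochberg adjusted p under 0.05. Standard errors and 95% intervals come from the same fit. DESeq2 1.42.0 and limma 3.58.1 (log2 of RPKM plus a pseudocount of 1) were alternatives. Levels are CPM on TMM library sizes. Likeness used log2 CPM with a prior count of 2. On simulated counts for 16612 genes, 81% of 2-fold and 95% of 4-fold changes were recovered.

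The 9 genes and the lists of other eosinophil genes and cell markers were chosen with earlier results of these data known. Named in the text are the 9 genes, list genes that were called or the most abundant of their list, and the 10 genes most like the 9 over 12 and over 9 libraries. Alox15, Rnase2a, Ear10, Ltc4s, Csf2rb, Crlf2, Il3, Csf2, Ccl5, Zfpm1, Ccr2, Ms4a2, Cpa3, Gata2, Prss34, Mcpt8, Fcer1a, Kit, Mpo, Elane, Csf3r, Car4, Fabp4, Marco and Pparg were named after their values were seen. Intervals and floors cover counting error or the spread between libraries only. Depth was 32757389 to 41375925 counts a library, so 3 counts equal 0.0725 to 0.0916 CPM.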

Additional observations from a re-analysis of the deposited data

How the results depend on the processing

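For TCA and GCA against PBS and GCA against TCA, none of the 9 genes was called under any alternative. With Tβ-MCA, all 9 log2 fold changes stayed negative under every alternative. The count called, 1 of 9 in the report, was 3 with DESeq2, 0 when the fit held only the 2 groups, 3 with the study's cutoffs and 8 without a filter, where the SE of Prg2 shrank from 0.405 to 0.0837. It was between 0 and 4 when 1 library was left out. With limma 1 of the 9 was called, Ear2 (limma adjusted p = 0.0485), and Siglecf was not (limma adjusted p = 0.0506). Of the companion eosinophil genes, 3 were called with Tβ-MCA in the report, 7 with DESeq2, 11 without a filter, 5 with at least 10 counts in every library, 0 with the 2 groups only, and between 0 and 14 when 1 library was left out. Without a filter, 1 was called for GCA against TCA. Over all genes, calls with Tβ-MCA numbered 1278, of which 533 were lower, against 2035 with DESeq2, 2406 without a filter, 780 with limma, 494 with the study's cutoffs, 0 with the 2 groups only, 1408 (395 lower) on total library sizes, and 0 to 3076 when 1 library was left out, the highest without Tβ-MCA library 5. Without a filter 37 genes were called for TCA and 36 for GCA against PBS and 42 for GCA against TCA, in place of 0, and 78, 89 and 74 were with the study's cutoffs. The causes were not tested.

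The shared replicate numbers gave 15 pairs of libraries across groups whose deviations correlated at 0.06 to 0.33, over 0.1 in 12 of them, with a mean of 0.19 against -0.07 for 39 pairs with other numbers, of which 7 were over 0.1. Of 11 libraries with a counterpart, 10 correlated best with their own number. Pairing was set to need every pair over 0.1, so the numbers were not taken to pair the libraries, and these values are a hint from the data. With the replicate number as a block, 3 of the 9 genes were called with Tβ-MCA (Prg3, Siglecf and Ccr3), beside 1498 of all 16761 genes, of which 727 were lower, and 3 of all genes with TCA. With the block and the study's cutoffs, a fit added after seeing the data, the counts were 2 of the 9 and 1 companion gene. The test of replicate number, also added after seeing the data, again called 7 of the 9 when the PBS libraries were included. The depth limits Ear1, Ccr3 and Il5ra most.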
